A study of Homo sapiens with 14 samples.

Results

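MicroRNAs (miRNAs) of 2 genomic clusters were followed in extracellular vesicles (EVs), small membrane-bound particles shed into culture medium. The members were miR-143-3p and miR-145-5p, encoded side by side on chromosome 5, and miR-199a-3p, miR-199a-5p and miR-214-3p, encoded on chromosome 1. They were taken by name from the table of raw counts, which lists 2632 miRNAs, and all 5 had at least 1 count. Together they held 0.454% of the 47091 counts in the 14 libraries, and 447 miRNAs had a count in any library.

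A miRNA is a short RNA that guides the silencing complex to messenger RNAs, mainly through pairing of its seed, the bases near its 5′ end. The cluster of miR-143 and miR-145 is known as abundant in smooth muscle and pericytes, the mural cells of vessels, where it helps to hold the contractile state. The cluster of miR-199a and miR-214 is known from mesenchymal cells and fibroblasts, and lies on the DNM3OS transcript that the factor TWIST1 is known to drive. Epicardial cells, which cover the heart, can pass through epithelial-to-mesenchymal transition (EMT) and give rise to fibroblasts and mural cells, so these miRNAs belong to fates that follow EMT. Only miRNAs were measured, so the cell types themselves cannot be checked against messenger RNA markers here.

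All libraries came from medium of pro-epicardial cells, the precursors of the epicardium, which had been differentiated from the human embryonic stem cell line hES-2. All results therefore concern 1 established line. SB cells received SB-431542, which blocks the TGF-β type I receptor kinases, at 6 µM for 8 days (4 libraries). NT cells received neither inhibitor nor growth factor (3 libraries, replicate numbers 1, 3 and 4). TGFb cells received 5 ng/ml TGF-β1, a known inducer of EMT, for 4 days and no additive for the next 4 days (4 libraries). FGF cells received 10 ng/ml bFGF, a fibroblast growth factor, for 8 days (3 libraries, numbers 2, 3 and 4). In every group the medium was passed through 100 kDa filters from day 4, conditioned for periods of 48 h and harvested on days 6 and 8. EVs were precipitated with polyethylene glycol, which can bring down other particles as well. No source used here says whether the replicates were separate cultures, so p-values measure the spread between these samples, which may be technical. A lower share of a miRNA in a library does not tell fewer vesicles that carry it from less of it per vesicle.

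The mature sequences are shown because the seed is the region that selects targets, and no seed is shared between members. They are printed 5′ to 3′ from RefSeq (GRCh38.p14), with the seed, bases 2 to 8, in capitals.
miR-143-3p: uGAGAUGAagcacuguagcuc
miR-145-5p: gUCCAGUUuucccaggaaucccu
miR-199a-3p: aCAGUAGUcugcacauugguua
miR-199a-5p: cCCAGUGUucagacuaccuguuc
miR-214-3p: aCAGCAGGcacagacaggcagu
The 5 seeds were all distinct, though some were alike. Those of miR-199a-3p and miR-214-3p had the same base at 5 of 7 positions, and those of miR-145-5p and miR-199a-5p shared a run of 5 bases at shifted positions. RefSeq sequences were found for 2349 of the 2632 rows and for 406 of the 447 miRNAs with a count. Among the matched rows, miR-4770 and miR-6088 share the seed of miR-143-3p, miR-3129-5p that of miR-199a-3p, and miR-3619-5p and miR-761 that of miR-214-3p. All of these rows were at 0 in every library, so each of these seeds was represented by its member alone among the matched rows with counts. The mature sequence of miR-199b-3p is identical to that of miR-199a-3p and the table has no row for it. Counts given as miR-199a-3p can therefore come from 3 loci.

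The 2 clusters lie on chromosomes 5 and 1. On GRCh38, miR-143-3p is encoded at chr5:149428978-149428998 on the plus strand, in an exon of the long non-coding RNA gene CARMN. Also on the plus strand, miR-145-5p lies at chr5:149430661-149430683, within CARMN and outside its annotated exons. The 2 hairpins are 1622 bases apart. On the minus strand of chromosome 1, miR-199a-3p lies at chr1:172144554-172144575, miR-199a-5p at chr1:172144592-172144614 and miR-214-3p at chr1:172138816-172138837. These hairpins, MIR199A2 and MIR214, are in exons of DNM3OS, which runs antisense within DNM3, and are 5627 bases apart. A further copy of the miR-199a hairpin, MIR199A1, carries miR-199a-3p at chr19:10817429-10817450 and miR-199a-5p at chr19:10817469-10817491 on the minus strand, in an intron of DNM2 on the opposite strand. The identical miR-199b-3p is at chr9:128244745-128244766 on the minus strand, within DNM1.

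The members differed widely in how often they were counted. miR-143-3p had 161 counts in 13 libraries and was 42nd of all miRNAs by summed count. miR-199a-3p had 46 counts in 8 libraries and was 83rd. The remaining members were at the edge of detection, with 4 counts for miR-145-5p, 2 for miR-214-3p and 1 for miR-199a-5p. The median miRNA among the 447 with a count had 4 counts in all, and 51.0% had 4 or fewer. Library totals ran from 115 to 14862 counts, a 129-fold range, and 4 libraries had fewer than 500 counts. A single count was thus 0.870% of the shallowest library, which belongs to FGF. With all libraries kept, only miR-143-3p passed the expression filter, a minimum count of 10 that is scaled by library total. The filter kept 47 miRNAs for the count model.

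**Figure D1:**
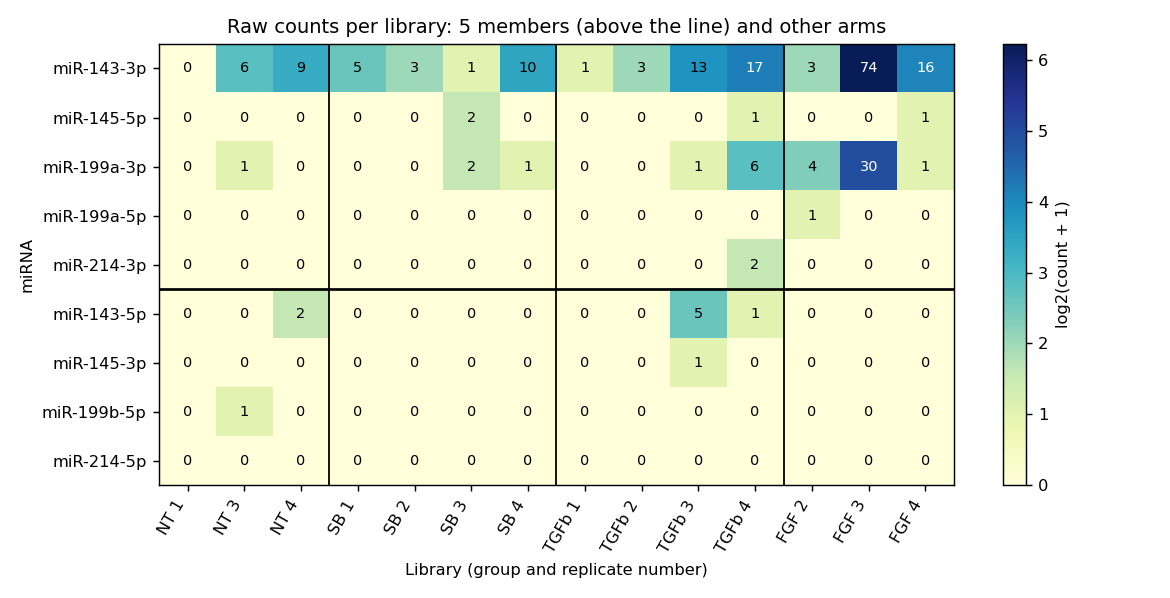
Raw counts of the 5 miRNAs (rows) in each of the 14 libraries (columns, by group and replicate), with the other arms and the paralog arm below the line; colour is log2(count + 1). The counts gather in miR-143-3p, with 74 in FGF replicate 3 at the highest, and in miR-199a-3p, with 30 in the same library.

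miR-143-3p took the largest share of counts in the FGF libraries. Its share of a library's counts was 2.61% in FGF replicate 2, 2.28% in replicate 3 and 1.84% in replicate 4. In NT it was 0% in replicate 1, 0.0634% in replicate 3 and 0.891% in replicate 4. The SB libraries held 1.45%, 1.68%, 0.0261% and 0.778% in replicates 1 to 4. The TGFb libraries held 0.0705%, 1.30%, 0.174% and 0.614%. All 3 FGF libraries lay above all 11 other libraries, since the lowest FGF share was 1.84% and the highest other share was 1.68%. Only miR-21-5p, a miRNA known to be high in fibroblasts and activated stroma, shared this property, so that it held for 4.26% of the 47 tested miRNAs and 0.447% of the 447 with a count. The shares in NT, SB and TGFb overlapped one another.

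Counting error alone leaves some of these shares loose. The 95% Wilson interval was 0.891 to 7.39% for FGF replicate 2, which rests on 3 counts, 1.82 to 2.86% for replicate 3 (74 counts) and 1.14 to 2.97% for replicate 4 (16 counts). In NT replicate 1, the deepest library, 0 of 14862 counts allows a share of up to 0.0202%. NT replicate 3 had 6 counts (0.0291 to 0.138%) and NT replicate 4 had 9 (0.470 to 1.68%). The intervals of FGF replicate 4 and NT replicate 4 overlap, and those of FGF replicate 3 and NT replicate 4 do not. FGF replicate 3 alone gave 46.0% of all counts of miR-143-3p while it held 6.88% of all counts in the series.

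**Figure D2:**
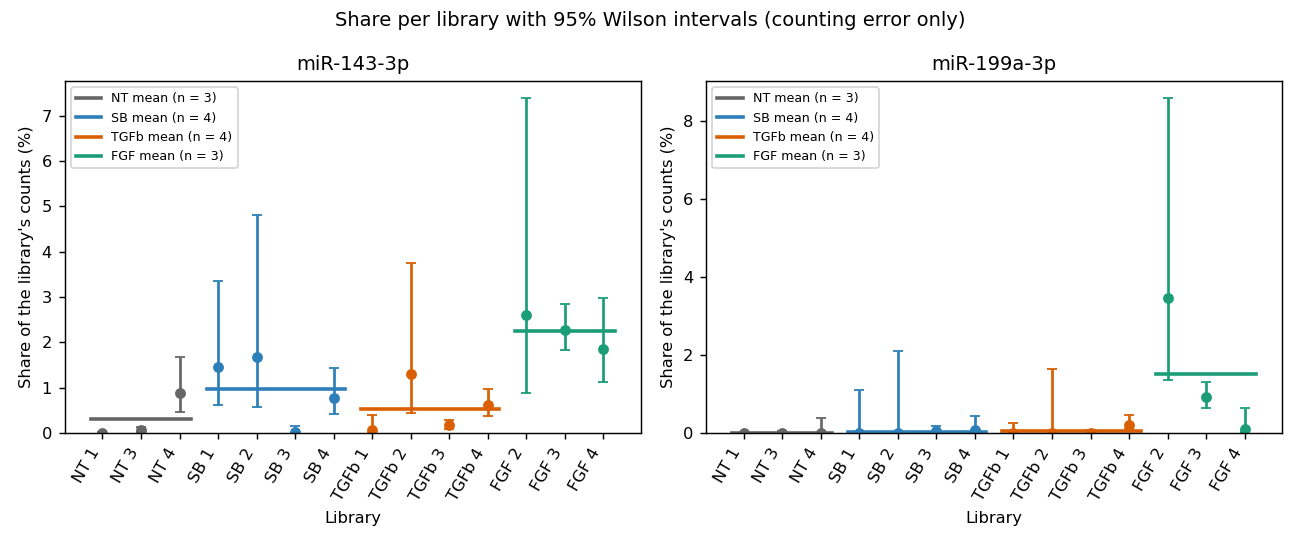
Share of each library's counts, in percent, for miR-143-3p and miR-199a-3p; points are libraries with 95% Wilson intervals and horizontal lines are group means. For miR-143-3p the FGF libraries sit between 1.84 and 2.61%, above every other library, and for miR-199a-3p the highest shares are the FGF values of 3.48 and 0.926%.

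The mean share of miR-143-3p was 2.25% ± 0.384 (SD, n = 3) in FGF, 0.982% ± 0.743 (SD, n = 4) in SB, 0.539% ± 0.558 (SD, n = 4) in TGFb and 0.318% ± 0.497 (SD, n = 3) in NT. In this order, SB and TGFb differed by less than the SD of either, as did TGFb and NT. Single libraries set some of these means. Without NT replicate 4 the NT mean was 0.0317%, and without TGFb replicate 2 the TGFb mean was 0.286%. With libraries of at least 500 counts only, the means were 2.06% in FGF, 0.402% in SB, 0.318% in NT and 0.286% in TGFb, so that FGF was still highest and NT and TGFb changed places.

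In edgeR's quasi-likelihood test with Benjamini-Hochberg adjustment over the 47 miRNAs, the 4 groups did not differ in miR-143-3p past the threshold (adjusted p = 0.483). The pairwise comparison with the smallest p was FGF against NT, with a log2 fold change of 2.94 (SE 1.32, adjusted p = 0.261 in edgeR). In that comparison miR-143-3p had the 6th smallest p of 47, and 17% of the 47 had an unadjusted p below 0.05 there. The model thus placed miR-143-3p higher in FGF than in NT by more than its SE, yet short of the adjusted threshold of 0.05.

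The number of members past the adjusted threshold was 0 of the 1 tested in the test of 4 groups and in each of the 6 pairwise comparisons, by edgeR and by DESeq2. The background, given as the share of the 47 tested miRNAs called by edgeR, was 2.13% for FGF against NT and 2.13% for SB against NT. It was 0% in the test of 4 groups, for TGFb against NT, TGFb against SB, FGF against SB and TGFb against FGF. At an unadjusted p below 0.05, miR-143-3p passed in 1 of the 6 pairwise comparisons, FGF against NT. The share of the 47 below that unadjusted p was 10.6% in the test of 4 groups, 12.8% for SB against NT, 4.26% for TGFb against NT, 8.51% for TGFb against SB, 6.38% for FGF against SB and 14.9% for TGFb against FGF. The groups did not overlap, with FGF higher, for 8.51% of the 47 tested miRNAs against NT and for 8.51% against SB. Comparisons against NT share the NT libraries and are not independent of one another.

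For TGF-β1, miR-143-3p showed no called difference. Between TGFb and NT the log2 fold change was 1.00 (SE 1.25, adjusted p = 0.935 in edgeR), and without NT replicate 4 it was 3.60 (adjusted p = 0.0879). Between TGFb and SB, the group in which TGF-β signalling was inhibited, it was −0.72 (SE 1.17, adjusted p = 0.907). These standard errors leave room for differences of several fold in either direction. The sign of the TGFb to SB difference also turned when only the 10 libraries of at least 500 counts were used, with a value of 0.21, and without SB replicate 1 (0.041). The other comparisons, named after their values were seen, gave 1.73 for SB over NT (SE 1.29, adjusted p = 0.456), 1.22 for FGF over SB (SE 1.18, adjusted p = 0.898) and −1.94 for TGFb over FGF (SE 1.17, adjusted p = 0.609 in edgeR).

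Depth moved with the share of miR-143-3p. In the 4 libraries below 500 counts, which belong to SB, TGFb and FGF and never to NT, its share ran from 1.30 to 2.61%, with a median of 1.56%. In the 10 deeper libraries it ran from 0 to 2.28%, with a median of 0.394%. With libraries of at least 500 counts only, the log2 fold changes of miR-143-3p in edgeR were 3.07 for FGF over NT (adjusted p = 0.268), 0.44 for SB over NT (adjusted p = 0.955), 0.65 for TGFb over NT (adjusted p = 0.972), 2.63 for FGF over SB (adjusted p = 0.715) and −2.43 for TGFb over FGF (adjusted p = 0.520). The SB to NT value was thus far smaller than the 1.73 from all libraries, and the FGF to SB value larger than 1.22. With the log10 library total in the fit, they were 2.61 for FGF over NT, 0.70 for SB over NT and 1.91 for FGF over SB, and none passed. As counts, FGF replicate 3 (3241 in total) held 74 of miR-143-3p, TGFb replicate 4 (2770) held 17 and SB replicate 3 (3826) held 1. FGF replicate 4 (868) held 16, NT replicate 4 (1010) held 9 and SB replicate 4 (1286) held 10. These libraries are a description, named after their values were seen.

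**Figure D3:**
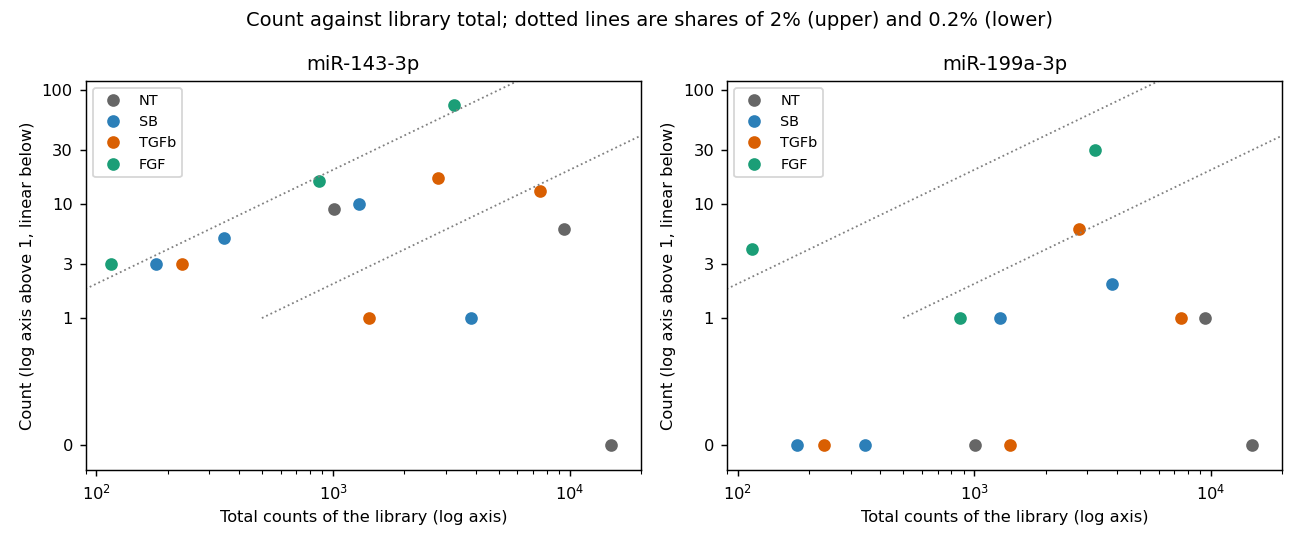
Counts of miR-143-3p (left) and miR-199a-3p (right) against the total counts of each library on a log axis, coloured by group; the dotted lines mark 2 constant shares. FGF replicate 3 stands above the libraries of similar total in both panels, with 74 and 30 counts.

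miR-145-5p, the neighbour of miR-143-3p and known to act on regulators of the smooth muscle state, was barely counted. It had 2 counts in SB replicate 3 (0.0523%), 1 in TGFb replicate 4 (0.0361%), 1 in FGF replicate 4 (0.115%) and 0 in the other libraries. All 3 NT libraries were at 0, and 0 of their 25334 counts together allows a share of up to 0.0118%. Its mean share was 0.0384% ± 0.0665 (SD, n = 3) in FGF, 0.0131% ± 0.0261 (SD, n = 4) in SB and 0.00903% ± 0.0181 (SD, n = 4) in TGFb. No group difference was detectable at this depth, with p from 0.714 to 1 in two-sided exact permutation tests over libraries. Against NT, each other group had its counts in 1 library, so p was fixed there by the group sizes, whatever the count. Although both arms derive from 1 genomic cluster, miR-143-3p had 161 counts to 4 for miR-145-5p, or 97.6% of their sum (Wilson interval 93.9 to 99.1%). Library preparation can favour one small RNA over another, so this ratio describes counts and not molecules.

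Within hairpins the counts fell mostly on 1 arm. miR-143-3p made up 95.3% of the counts of its hairpin (90.9 to 97.6%), against 8 counts for miR-143-5p. Those 8 lay in NT replicate 4 (2), TGFb replicate 3 (5) and TGFb replicate 4 (1), and none lay in FGF, where the 3p arm was most frequent. miR-145-3p had 1 count, in TGFb replicate 3. miR-199a-3p made up 97.9% of the counts of its hairpins (88.9 to 99.6%), with the limit that its row can include miR-199b-3p. miR-214-5p was at 0 in all libraries, and the paralog arm miR-199b-5p had 1 count, in NT replicate 3.

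miR-199a-3p was found mainly in FGF libraries, at shares that differed widely among them. It had 4 counts in FGF replicate 2 (3.48%, 1.36 to 8.60%), 30 in replicate 3 (0.926%, 0.649 to 1.32%) and 1 in replicate 4 (0.115%, 0.0203 to 0.650%). In NT it had 1 count, in replicate 3 (0.0106%), and was at 0 in replicates 1 and 4. In SB it had 2 counts in replicate 3 (0.0523%) and 1 in replicate 4 (0.0778%), and was at 0 in replicates 1 and 2. In TGFb it had 1 count in replicate 3 (0.0134%) and 6 in replicate 4 (0.217%, 0.0993 to 0.472%), and was at 0 in replicates 1 and 2. Every FGF library was above every NT and every SB library, while FGF replicate 4 lay below TGFb replicate 4. Of the 375 miRNAs with a count in FGF or NT, 1.6% had FGF wholly above NT, and of the 279 with a count in FGF or SB, 1.79% had FGF wholly above SB. FGF replicate 3 held 65.2% of all counts of miR-199a-3p.

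The mean share of miR-199a-3p was 1.51% ± 1.76 (SD, n = 3) in FGF, 0.0575% ± 0.106 (SD, n = 4) in TGFb, 0.0325% ± 0.0390 (SD, n = 4) in SB and 0.00352% ± 0.00610 (SD, n = 3) in NT. In this order each group differed from the next by less than 1 SD of the higher group, FGF from TGFb included. Without FGF replicate 2, the shallowest library, the FGF mean was 0.520%, and without TGFb replicate 4 the TGFb mean was 0.00446%, below that of SB. In two-sided exact permutation tests of the mean share, FGF against SB gave p = 0.0286, the smallest that 3 against 4 libraries allow, and FGF against NT gave p = 0.1, the smallest that 3 against 3 allow. Adjusted over all miRNAs with a count in either group, both were 1. TGFb against NT gave an exact permutation p = 0.714 and TGFb against SB gave p = 0.886. With the counts of a group added up, miR-199a-3p was 15.6-fold more frequent in FGF than in SB (4.91 to 79.1, counting error only), a ratio to which FGF replicate 3 contributes most.

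In edgeR without the expression filter, over the 447 miRNAs with a count, miR-199a-3p passed the threshold in FGF against NT with a log2 fold change of 6.14 (SE 1.54, adjusted p = 0.0288). It was the only miRNA called there, or 0.224% of those tested, and the only one called in the test of 4 groups (adjusted p = 0.0336). The fitted value depends on the prior count, because the 3 NT libraries held 1 count together. The call was lost with libraries of at least 500 counts (5.80, adjusted p = 0.243), with replicate numbers blocked (5.01, adjusted p = 0.183), and when 1 of 5 libraries was left out. Those were FGF replicate 2 (adjusted p = 0.141), FGF replicate 3 (0.120), NT replicate 1 (0.648), NT replicate 3 (0.279) and TGFb replicate 3 (0.0566). miR-199a-3p also passed the expression filter in some fits with a library left out. Only FGF replicates 2 and 3 (shares of 3.48 and 0.926%) were high enough to meet the filter there. It thus entered these fits only through the group where it was highest, and their calls are not separate support. In edgeR it was called without FGF replicate 4, the FGF library with its lowest share (6.76, adjusted p = 0.044), and without NT replicate 4 (6.48, adjusted p = 0.047). It was not called without NT replicate 1 (5.48, adjusted p = 0.279) or NT replicate 3 (7.12, adjusted p = 0.105). The share of all tested miRNAs called was not worked out for any fit with a library left out. Calls in those fits therefore cannot be read as particular to miR-199a-3p. Without the filter the other named comparisons of miR-199a-3p gave 2.97 for TGFb over NT (SE 1.41, adjusted p = 0.732) and 0.79 for TGFb over SB (SE 1.36, adjusted p = 1 in edgeR).

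The FGF to NT value of miR-143-3p also depended on 1 control library. Without NT replicate 4, the NT library with the highest share of miR-143-3p, the log2 fold change was 5.55 and passed the threshold (adjusted p = 0.00457 in edgeR). SB over NT then gave 4.24 (adjusted p = 0.0203). The share of the 53 tested miRNAs called in that fit was not worked out. These calls therefore have no background beside them and cannot be read as particular to miR-143-3p. With any other single library left out, FGF over NT ran from 2.13 to 2.99 and did not pass. The direction was FGF higher in every setting tried, and the value lay between 2.61 and 3.52 in the settings that kept every library or only those of at least 500 counts.

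**Figure D4:**
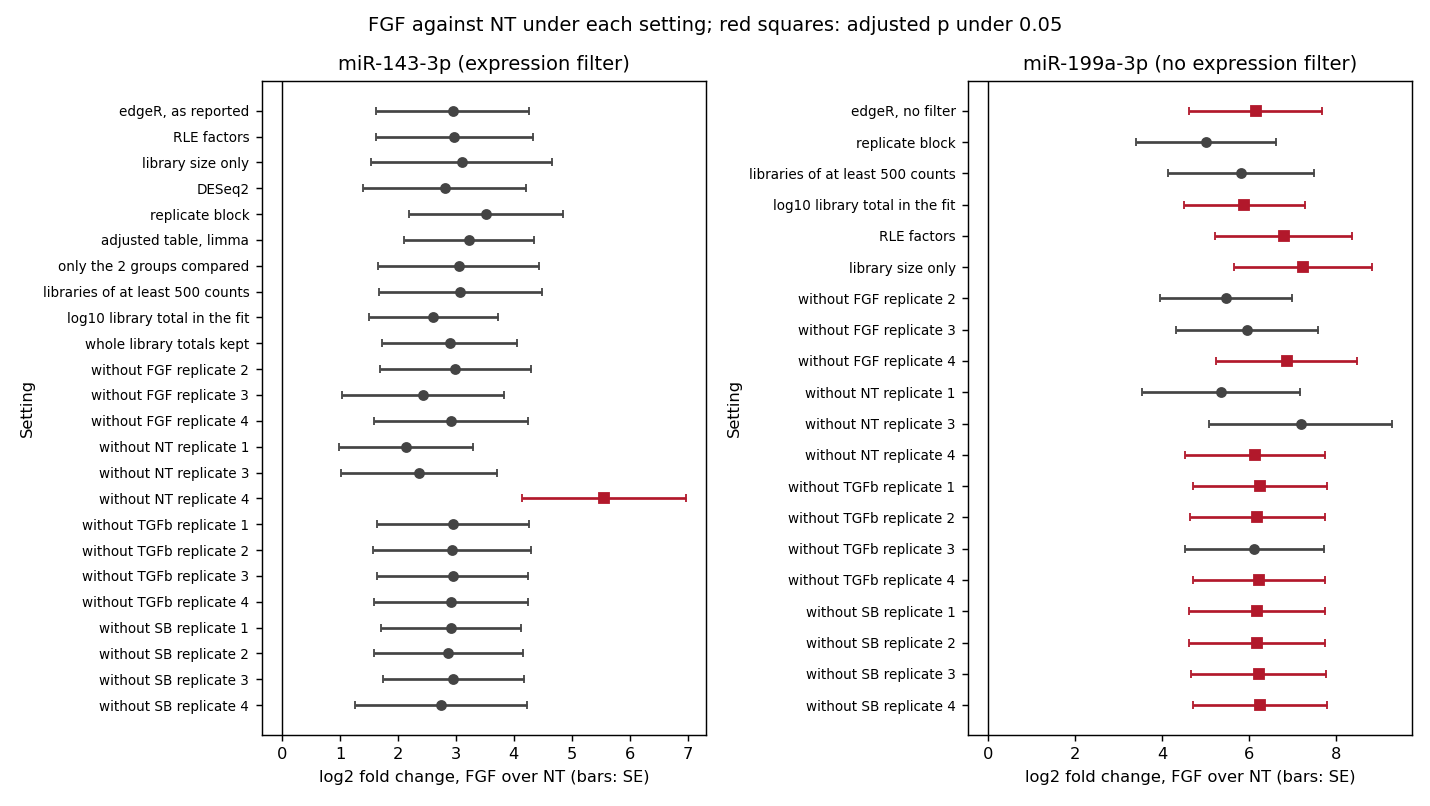
Log2 fold change of FGF over NT with its SE under each processing setting and with each library left out, for miR-143-3p (with the expression filter) and miR-199a-3p (without it); red squares have an adjusted p under 0.05. miR-143-3p passes once, without NT replicate 4 (5.55), and miR-199a-3p passes in part of the settings.

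miR-199a-5p and miR-214-3p, the other products of the DNM3OS transcript, gave almost no counts. miR-199a-5p had 1 count in the series, in FGF replicate 2, where it made up 0.870% of 115 counts. miR-214-3p, which is known to be raised in activated fibroblasts, had 2 counts, both in TGFb replicate 4 (0.0722%). The smallest p for miR-199a-5p was 0.429, for FGF against SB and for TGFb against FGF, and for miR-214-3p every p was 1, in exact permutation tests. Each of these miRNAs had its counts in 1 library, so these p-values were fixed by the group sizes, whatever the count. They therefore cannot show whether the groups differ. Between TGFb and NT or SB, miR-199a-5p was at 0 on both sides. For a count of 0 in a whole group, the limit was 0.0118% in NT, 0.0532% in SB, 0.0252% in TGFb and 0.0710% in FGF. Set against miR-214-3p, miR-199a-3p had 46 counts to 2, or 95.8% of their sum (Wilson interval 86.0 to 98.8%). The miR-199a-3p counts can also come from loci outside DNM3OS, and library preparation can favour one small RNA over another. This ratio therefore describes counts and not products of 1 transcript.

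The members were spread unevenly over libraries. The summed share of the 5 ran from 2.07 to 6.96% in FGF, 0.131 to 1.68% in SB, 0.0705 to 1.30% in TGFb and 0 to 0.891% in NT. TGFb replicate 4 held 4 of the 5, and FGF replicate 2, FGF replicate 4 and SB replicate 3 held 3 each. NT replicate 1 held none, although it was the deepest library with 14862 counts. Within replicate numbers 2, 3 and 4, the FGF library had the highest share of miR-143-3p of the groups present at that number. This follows from the FGF libraries lying above all 11 others, so it is no further support. For miR-199a-3p the FGF library was highest at numbers 2 and 3. At number 4 it was below TGFb (0.115% against 0.217%).

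Across the 14 libraries, the tested miRNAs whose log2 CPM (the count scaled by the library's total) moved most like those of miR-143-3p were miR-21-5p (Spearman rho 0.877), let-7b-5p (0.732) and miR-9-5p (0.666), where the median over 46 miRNAs was 0.178. For miR-199a-3p they were miR-103a-3p (0.792), miR-93-5p (0.723) and miR-26a-5p (0.693), with a median of 0.156 over 47. The libraries share the spread in depth, and many counts are below 10, so these values only describe which rows varied alike. The lists of nearest miRNAs for miR-143-3p and miR-199a-3p had no name in common.

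Other miRNAs of mesenchymal cells and fibroblasts gave the surroundings of the members. Of 12 listed, all 12 had a count, 3 were tested (miR-125b-5p, miR-221-3p and miR-21-5p) and 0 passed the adjusted threshold in any comparison in edgeR. The most counted were miR-125b-5p with 844 counts and miR-21-5p with 518. Their summed share ran from 8.86 to 11.5% in FGF, 2.33 to 10% in TGFb, 3.34 to 5.51% in SB and 2.68 to 6.34% in NT, and the FGF range overlapped that of TGFb only. Without miR-21-5p, which by itself was 5.21% or more in each FGF library, the other 11 summed to 3.64 to 5.22% in FGF and 2.44 to 3.66% in NT, which overlap, and to 2.10 to 2.95% in SB. In TGFb they summed to 1.83 to 6.39%, a range that took in all of the FGF range. The median log2 fold change of the 3 tested was 0.36 for FGF over NT and 1.24 for FGF over SB, beside medians of −0.001 and −0.09 over all 47. The 3 did not move alike from NT to FGF, with 2.42 for miR-21-5p (adjusted p = 0.148), 0.36 for miR-125b-5p (adjusted p = 0.805) and −0.34 for miR-221-3p (adjusted p = 0.892 in edgeR).

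Markers of other cells that the medium or culture could hold were counted in the same libraries. Of 7 epithelial miRNAs, all 7 had a count (160 in all, led by miR-205-5p with 50 and miR-200c-3p with 44), and their summed share was 0.617 to 2.61% in FGF, 0.0404 to 1.98% in NT, 0 to 1.71% in SB and 0.147 to 1.30% in TGFb. The 2 endothelial arms, miR-126-3p (79 counts) and miR-126-5p (6), made up 0 to 1.04% in FGF, 0.0269 to 0.0990% in NT, 0 to 3.91% in SB and 0.0535 to 0.866% in TGFb. For miR-126-3p the log2 fold change was 3.04 for FGF over NT (SE 1.40, adjusted p = 0.261 in edgeR), as large as that of miR-143-3p, and 3.69 for SB over NT (SE 1.43, adjusted p = 0.245). Of 8 blood and serum miRNAs, 5 had a count, led by miR-122-5p (34) and miR-142-3p (14), with 0.216 to 1.74% in FGF, 0.0202 to 0.693% in NT, 0 to 3.91% in SB and 0 to 0.253% in TGFb, and the red-cell miR-451a was at 0 everywhere. Of 7 striated muscle miRNAs, 3 had a count, led by miR-1-3p (22) and miR-133a-3p (12), at up to 0.0926% in FGF, 0.792% in NT, 0.870% in SB and 0.212% in TGFb. Of 8 pluripotency miRNAs, 2 had a count, miR-372-3p (3) and miR-302a-3p (2), and none was found in FGF. The part of these other sources in the shares of miR-143-3p and miR-199a-3p was not tested.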

How the data were processed

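Per the labels' protocols, EVs came from the miRCURY kit, their RNA from the miRNeasy Micro kit and the libraries from the QIAseq miRNA kit. The submitters' processing notes name GRCh38; the aligner, the miRNA annotation and the use of molecular identifiers are not given in the sources used here. The authors' deposited raw table holds whole-number counts. The authors' second table holds adjusted values, treated as a score because how they were made is not given; 1084 of 2001 nonzero values differ from the counts. It ends in 2 lines that name no miRNA, which were left out, and its 14 per-library CPM columns were set aside.

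Groups come from the labels. All 14 libraries entered 1 fit of group means in edgeR 4.0.16 (glmQLFit, robust, TMM) in R 4.3.3, after filterByExpr with a minimum count of 10, with library totals recomputed. The threshold was a Benjamini-Hochberg adjusted p of 0.05. SE is the absolute log2 fold change over the square root of F. Members below the filter were compared by two-sided exact permutation of mean shares (scipy 1.17.1). Intervals are 95% Wilson, a count of 0 allows 3 counts, and both cover counting error only. The code was tested on simulated data. Alternatives were RLE factors, library size, DESeq2 1.42.0, no filter, the replicate block, the adjusted table (limma 3.58.1), only the groups compared, libraries of at least 500 counts and each library left out; 8 further ones, mostly combinations with no filter, were added after seeing the data.

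The members, the comparisons and the lists were chosen with earlier results of these data known. Per member, the text names the test of 4 groups, the pairwise comparison with the smallest p, and TGFb against NT and SB. Per list, it names the 2 most counted miRNAs, and as most like a member the 3 with the highest rho. Same-numbered libraries correlated in their deviations from group means at 0.0178 to 0.615, above 0.1 in 15 of 18 pairs (mean 0.298), which points to something shared within numbers. No source says what, and pairing was accepted only if every pair passed 0.1, so the block stayed an alternative. Annotation is GENCODE 29.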

Additional observations from a re-analysis of the deposited data

Results flagged for a closer look

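In groups of 4 libraries, single libraries stood apart from the others in 4 of the 7 sets that held a count. In 3 of these 4 all other libraries were at 0, so that any count at all sets the library apart, and the rate of about 1 in 20 that chance gives does not hold for them. miR-145-5p stood apart in SB replicate 3 (0.0523%, 2 counts) and in TGFb replicate 4 (0.0361%, 1 count), the other 3 libraries of each group being at 0. miR-199a-3p stood apart in TGFb replicate 4 (0.217%, 6 counts). miR-214-3p stood apart in the same library (0.0722%, 2 counts). NT and FGF, with 3 libraries each, were not examined this way.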

How the results depend on the processing

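With the expression filter and no single library left out, 0 members were called in each of the 7 tests. Without the filter, 1 was called in the test of 4 groups and 1 in FGF against NT (miR-199a-3p), also with RLE factors, library size alone or the log10 total in the fit. With each library left out, with or without the filter, the count ran from 0 to 2 for the 4 groups, 0 to 2 for FGF against NT, 0 to 1 for SB against NT and 0 to 0 for the others. The highest count of each came without NT replicate 4. The share of all tested miRNAs called in the fits with a library left out was not worked out, so these counts have no background beside them. With the replicate block, 0 members were called in any test, with or without the filter, where 0 to 8.51% of the tested miRNAs were called with it. The TGFb to SB value of miR-143-3p turned positive with libraries of at least 500 counts (0.21; 0.32 without the filter) and with the log10 total in the fit (0.30; 0.45 without the filter), and ran from −1.31 to 0.15 with each library left out, with or without the filter (0.15 without TGFb replicate 1 and no filter; positive also at 0.041 without SB replicate 1 and, without the filter, at 0.048 without SB replicate 4); the cause was not tested. With each library left out, the sign also turned for miR-199a-3p TGFb over SB without the filter (−1.37 to 1.21) and for differences in mean share, in percentage points: miR-199a-3p TGFb minus SB (−0.0281 to 0.0442), and miR-145-5p FGF minus SB (−0.0131 to 0.0445), TGFb minus FGF (−0.0486 to 0.00903) and TGFb minus SB (−0.0131 to 0.00903). All 130 alternative values of the mean shares stayed within 1 SD, but many SDs are about as large as the means: of 85 alternatives to means above 0, 29 moved the mean by over 1.5 times, 7 of 26 for miR-143-3p and 10 of 26 for miR-199a-3p. For miR-143-3p, pooling the counts gave 0.0592% in NT, 0.337% in SB and 0.286% in TGFb. Scaling by library size moved the median of all tested miRNAs by 0.41 (FGF over NT) and −0.64 (TGFb over FGF) on the log2 scale.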
